A study of Mus musculus with 36 samples.

Results

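The 5 genes described here encode the NKG2 and CD94 receptors of mouse natural killer (NK) cells. Klrc1 (ENSMUSG00000030167) encodes NKG2A, Klrc2 (ENSMUSG00000052736) NKG2C, Klrc3 (ENSMUSG00000033027) NKG2E, Klrd1 (ENSMUSG00000030165) CD94 and Klrk1 (ENSMUSG00000030149) NKG2D. They were taken by symbol from each of the 4 deposited expression tables, and all 5 were found in every table. The table of sorted splenic NK subsets lists 32940 genes, and the ionomycin, antibody and tumour tables list 56923 genes each.

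CD94 pairs with NKG2A, NKG2C or NKG2E, and these pairs bind the non-classical class I molecule Qa-1, which presents peptides cut from the leader sequences of classical class I molecules. NKG2A carries inhibitory tyrosine motifs in its cytoplasmic tail and recruits phosphatases, whereas NKG2C and NKG2E lack these motifs and signal through the adaptor DAP12. NKG2D forms homodimers without CD94, binds stress-induced ligands of the Rae-1, H60 and MULT1 families, and signals through the adaptors DAP10 and, in mouse, DAP12. All 5 genes lie in the NK gene complex, where receptor genes of the Ly49 family follow them.

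RNA was sequenced from NK cells in 36 libraries, 3 for each of 12 groups, which the titles call biological replicates. In the subset table, 18 libraries came from mature splenic NK cells sorted as CD27-CD11b+, from wild-type mice (WT; B2m+/+, C57BL/6) or from B2m-/- mice, which lack the light chain of class I molecules. In each genotype they were sorted by 3 inhibitory receptors. TP cells bore all of them (Ly49C+Ly49I+NKG2A+), SP cells bore Ly49I alone (Ly49C-Ly49I+NKG2A-), and TN cells bore none (Ly49C-Ly49I-NKG2A-). The ionomycin table holds NK cells purified by flow cytometry from WT splenocytes after 22 h of culture with ionomycin, which lets calcium into the cell, or with its vehicle. The antibody table holds NK cells of WT mice cultured for 48 h in medium alone or on plates coated with 2 antibodies, of which 1 bound the activating receptor NKp46 and the other bound either NKG2D or DNAM-1. Of the 9 libraries there, 6 have a title that names another group than their column, and the columns were followed. The tumour table holds CD27-CD11b+ NK cells from subcutaneous MC38 tumours (a mouse colon carcinoma line, here B2m-/-) after 10 days in C57BL/6 mice. Its columns are named for B2MKO and SP, while the titles name no receptor gate and the genotype label is WT, and the titles were followed. No age or sex of the mice and no antibody clone used to sort NKG2A+ cells is given in the sources used here.

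The reading frames of the 3 Klrc genes show how alike their transcripts are, which bears on every value below, since reads from shared stretches can be assigned to more than one of them. The first 120 coding bases, which encode the start of the cytoplasmic tail, are shown because the inhibitory and the activating members differ most there. They were read from GENCODE M21 transcripts (GRCm38), and capitals mark bases that differ from Klrc2 or have no counterpart in it.
Klrc2: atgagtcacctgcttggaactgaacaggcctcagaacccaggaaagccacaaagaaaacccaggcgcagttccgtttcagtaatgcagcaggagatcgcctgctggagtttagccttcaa
Klrc3: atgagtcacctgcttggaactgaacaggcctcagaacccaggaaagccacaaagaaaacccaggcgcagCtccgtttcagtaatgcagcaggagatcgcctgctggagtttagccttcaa
Klrc1: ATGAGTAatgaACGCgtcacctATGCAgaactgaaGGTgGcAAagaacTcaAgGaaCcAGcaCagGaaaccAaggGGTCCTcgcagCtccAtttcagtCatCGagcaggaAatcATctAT
Klrc3 had 1 such marked base and Klrc1 47. The marks in Klrc1 include its opening ATGAGTA, which the alignment left without a counterpart although both genes begin with ATGAGT. Over the first 120 coding bases of Klrc2, Klrc1 was 72.5% identical to it in the bases aligned, against 85.3% over the rest of the coding sequence. Klrc2 and Klrc3 were 99.2% identical over this stretch and 94.0% over the rest. Counting windows of 50 bases over the whole transcripts, 38.5% of those of Klrc1, 29.4% of those of Klrc2 and 38.6% of those of Klrc3 were also found in another of the 5 genes, and 14.5%, 12.8% and 18.1% were shared with windows of 100 bases. Klrd1 and Klrk1 shared none of their windows of either length with the other 4 genes, and their coding sequences were 58.2% to 63.4% identical to those of the other members.

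The sequences upstream of Klrc2 and Klrc3 are also nearly the same, and they are shown because the levels of these genes differed in the same direction between the subsets. The stretches below are on the minus strand of chromosome 6 in GRCm38.p6, from RefSeq promoters, with bases that differ between Klrc2 and Klrc3 in capitals. Klrc2 is at chr6:129660690-129660805, Klrc3 at chr6:129643422-129643538, and the bases directly before the first exon of Klrc1 are at chr6:129678974-129679089.
Klrc2: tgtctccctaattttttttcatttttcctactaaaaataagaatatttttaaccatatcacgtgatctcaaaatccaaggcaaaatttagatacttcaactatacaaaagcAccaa
Klrc3: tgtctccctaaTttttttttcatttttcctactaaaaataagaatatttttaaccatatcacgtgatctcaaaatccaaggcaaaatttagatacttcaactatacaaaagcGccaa
Klrc1: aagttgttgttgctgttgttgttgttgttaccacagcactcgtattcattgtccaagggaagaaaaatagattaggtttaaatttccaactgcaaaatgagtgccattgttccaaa
Of 117 aligned positions, Klrc2 and Klrc3 were identical at 115. Between their promoter windows 259 bases aligned, of which 98.8% were identical, whereas Klrc1 was 66.2% identical to Klrc2 over 207 aligned bases and 57.2% to Klrc3 over 264. RefSeq promoter windows of 300 bases, 250 before and 50 after the start, were available for 4 of the 5 genes and were searched on both strands for 4 short motifs. Of the 250 bases before the start, 157 in Klrc2 and 201 in Klrc3 come before any GENCODE exon of the gene. In Klrc1 and Klrk1 all 250 do. The identities between windows and the matches below therefore cover exon bases too. The RUNX letters TGTGGT were present in all 4 genes, against 16.8% of 32851 mouse promoters. The NFAT letters GGAAAA were present in Klrc2 and Klrc3 (23.4% of promoters), and the AP-1 letters TGANTCA in Klrc2, Klrc3 and Klrk1 (7.81%), in Klrc2 and Klrc3 across the start codon. The T-box letters TCACACC were in none of the 4 (3.98%). These are matches of letters, and no binding was measured.

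Values are TPM, a unit scaled by gene length and library total, so that genes can be compared within a library. TPM keep no depth, and the genes above 0 ran from 12290 to 14501 per library in the subset table, 13904 to 15483 in the ionomycin table, 13555 to 18096 in the antibody table and 14155 to 16271 in the tumour table. All 6 NK markers on a list (such as Ncr1 and Eomes) were above 1 TPM in every library, while the summed T cell markers stayed between 0 and 75.0 TPM. Summed neutrophil markers stood at 61.0 to 217.6 TPM in the B2m-/- TP libraries and at most 5.85 TPM in the other 15 subset libraries. They were at 377 TPM in vehicle replicate 3 and 120.2 TPM in ionomycin replicate 3, and at most 2.19 TPM in the other 4 libraries of that table. B and plasma cell markers summed to 403 to 683 TPM in B2m-/- TP cells and 167 to 336 TPM in the other subset groups. B2m, the deleted gene, lay between 2915 and 3420 TPM in the 9 WT libraries and between 73.9 and 128.5 TPM in the 9 B2m-/- libraries.

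**Figure D1:**
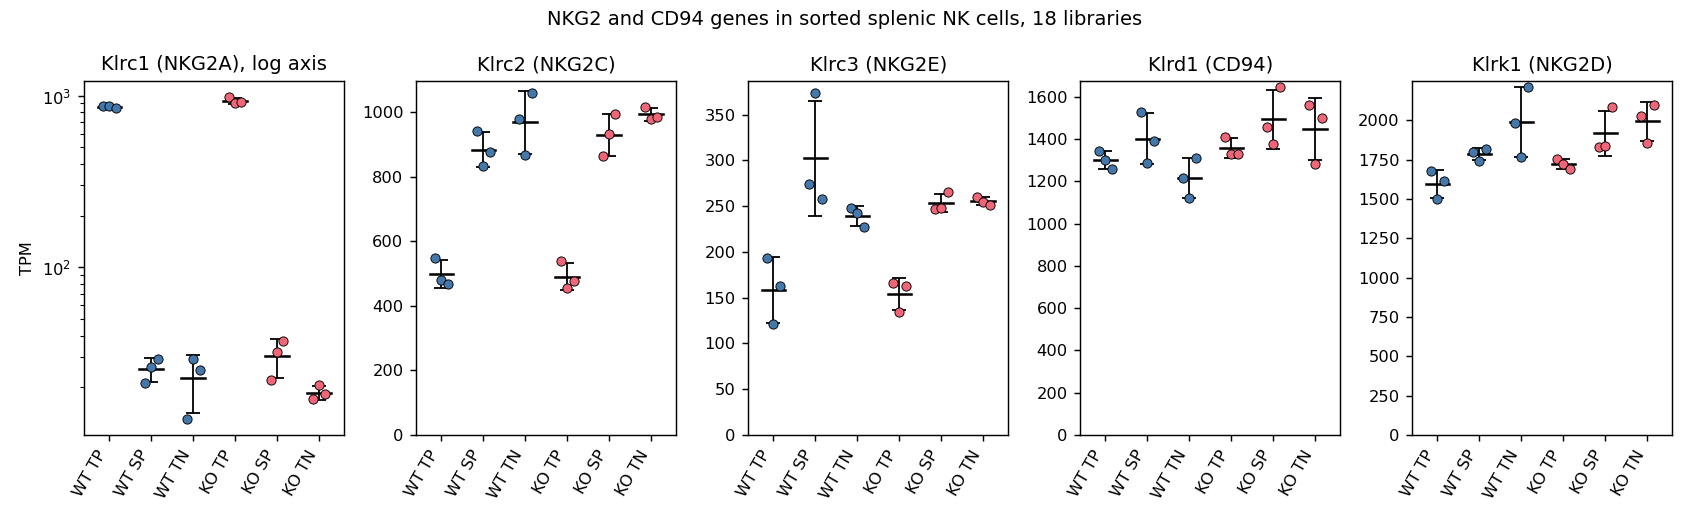
TPM of the 5 genes in the 18 libraries of sorted splenic NK subsets (KO, B2m-/-). Points are libraries, bars the mean and SD of 3. Klrc1, on a log axis, is above 850 TPM in TP cells and under 40 TPM in SP and TN cells, Klrc2 and Klrc3 are lower in TP cells, and Klrd1 overlaps between neighbouring groups.

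Klrk1 was the most abundant of the 5 genes in every library of sorted splenic cells and ranked 23rd to 48th among all genes of its library. Klrd1 came next, ranking 38th to 86th. Klrc2 ranked 104th to 306th and Klrc3 393rd to 1628th. Klrc1 ranked 104th to 142nd in TP cells but only 5025th to 8002nd in SP and TN cells.

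Klrc1 is the gene of a sorted receptor, so its difference between TP cells and the others checks the sort and is no finding. In WT TP cells it was at 868, 871 and 853 TPM, and in B2m-/- TP cells at 980.4, 901 and 914 TPM. In WT SP cells it was at 21.0, 26.2 and 29.1 TPM and in WT TN cells at 13.1, 29.2 and 25.2 TPM. In B2m-/- SP cells it was at 22.0, 32.1 and 37.2 TPM and in B2m-/- TN cells at 17.0, 20.5 and 18.2 TPM. TP libraries were thus far above all others, and the log2 differences from TP cells, on the log2(TPM + 1) scale used throughout, lay between -4.92 and -5.58 in the 4 comparisons. The residual Klrc1 level in NKG2A- cells made up 1.06% to 2.87% of the summed Klrc1, Klrc2 and Klrc3 level, in libraries where Klrc2 stood at 834 to 1061 TPM. How much of it came from reads shared with Klrc2 and Klrc3 was not tested.

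Klrc2, which was not part of the sort, was lower in TP cells of both genotypes. In WT cells it was at 548, 480 and 467 TPM in TP, 941, 834 and 877 TPM in SP, and 979, 867 and 1061 TPM in TN cells. In B2m-/- cells it was at 538, 456 and 478 TPM in TP, 865, 931 and 995 TPM in SP, and 1016, 979 and 986 TPM in TN cells. Every SP and TN library lay above every TP library, and SP and TN libraries overlapped. With limma, TN cells exceeded TP cells by 0.96 on the log2 scale in WT mice (SE 0.088, adjusted p = 4.56e-06, a 1.94-fold difference). In B2m-/- mice the same difference was 1.02 (SE 0.088, adjusted p = 2.43e-06, 2.03-fold). SP cells exceeded TP cells by 0.83 in WT mice (adjusted p = 6.46e-05) and by 0.92 in B2m-/- mice (adjusted p = 1.77e-05). The TN and SP comparisons of a genotype share their TP libraries. TN and SP cells differed by 0.13 in WT mice (95% interval -0.06 to 0.31, adjusted p = 0.595) and by 0.10 in B2m-/- mice (-0.09 to 0.28, adjusted p = 1.00). Neutrophil and B cell markers were higher in the B2m-/- TP libraries, as given above. In WT mice all 7 neutrophil markers were listed at 0 in TP cells, and B and plasma cell markers summed to 167 to 180.2 TPM in TP, 180.5 to 189 TPM in SP and 280 to 336 TPM in TN cells. A list of 5 ILC1 markers, genes of the related innate lymphoid cells of type 1, also followed the gate. It summed to 15.5 to 30.9 TPM in TP cells (3 or 4 of 5 above 1 TPM) and 0.70 to 7.99 TPM in SP and TN cells (0 to 3 of 5, with Cd200r1 at 0 in WT TN cells), and the part of these cell types in the differences of the Klrc genes was not tested.

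Klrc3 differed in the same direction, with more scatter and calls that were less stable. In WT cells it was at 193, 121 and 162 TPM in TP, 275, 374 and 258 TPM in SP, and 248, 242 and 227 TPM in TN cells. In B2m-/- cells it was at 166, 134 and 162 TPM in TP, 247, 248 and 265 TPM in SP, and 260.4, 255 and 251.45 TPM in TN cells. TP libraries were again the lowest in both genotypes, without overlap, and WT SP replicate 2 was the highest of all 18. The limma difference of SP from TP cells in WT mice was 0.93 (SE 0.149, adjusted p = 0.00825), and with only these 6 libraries in the fit the adjusted p was 0.366. In B2m-/- mice, TN cells exceeded TP cells by 0.73 (adjusted p = 0.0311), a call lost when any single library was left out (adjusted p 0.0741 to 0.173), with the replicate block (0.0726), without the filter on low values (0.0635) and without the variance trend (0.109). The differences of TN from TP cells in WT mice (0.61, adjusted p = 0.0548, or 0.0192 without WT TP replicate 1) and of SP from TP cells in B2m-/- mice (0.72, adjusted p = 0.0761, or 0.0377 with only these 6 libraries) missed the threshold.

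In counts, Klrc1 aside, Klrc2 was called in all 4 comparisons with TP cells and Klrc3 in 2 of them. With Klrc1 this made 2 of the 5 genes in WT TN against TP cells, where 1.31% of 12018 tested genes were called, and 3 in WT SP against TP cells (0.191% of all genes). In B2m-/- mice it made 3 in TN against TP cells (0.524%) and 2 in SP against TP cells (0.2%). The part of these counts that Klrc1 supplies was fixed by the sort. Between TN and SP cells none of the 5 was called, in WT mice (0.383% of all genes called, and 2 of the 5 at an unadjusted p under 0.05, against 12.1% of all genes) or in B2m-/- mice (0.0416%, and 1 of the 5, against 2.77%). The median log2 difference of the 5 genes was 0.31 for WT TN against TP cells, 0.16 for WT SP against TP, 0.21 for B2m-/- TN against TP and 0.15 for B2m-/- SP against TP, while the medians of all tested genes lay between -0.03 and 0.00. With 5 genes each median is the value of 1 gene, here always Klrk1, which was not called. These medians therefore do not describe a shift of the 5 genes together.

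The shares of the 3 Klrc genes in their sum follow in part from the sort, which fixes Klrc1, and are given as a description. In TP cells Klrc1 supplied 54.0% to 60.4% of the summed Klrc level, Klrc2 30.6% to 34.1% and Klrc3 8.21% to 12.0%. In SP and TN cells Klrc2 supplied 67.6% to 80.8% and Klrc3 17.3% to 30.3%. With Klrc1 left aside, Klrc2 was 2.84 to 3.97 times Klrc3 in TP cells and 2.23 to 4.67 times in SP and TN cells, ranges that overlap. The summed level, to which the gate contributes through Klrc1, was 1521 ± 76.4 TPM in WT TP, 1212 ± 40.9 TPM in WT SP and 1231 ± 87.2 TPM in WT TN cells (SD, n = 3). In B2m-/- cells it was 1577 ± 97.8 TPM in TP, 1214 ± 81.9 TPM in SP and 1268 ± 22.3 TPM in TN. The 3 transcripts differ in length, so a read moved between them also changes the summed TPM. When the sum was fitted as 1 gene it was lower by 0.31 to 0.38 in the 4 comparisons with TP cells, but the limma call depended on the comparison: the adjusted p was 0.0319 for WT TN, 0.0716 for WT SP, 0.0520 for B2m-/- TN and 0.0225 for B2m-/- SP cells. Each of the 2 calls was lost under 8 of 13 alternatives. Relative to Klrd1, the sum stood at 1.12 to 1.20 in the 6 TP libraries and at 0.777 to 1.02 in the 12 SP and TN libraries.

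**Figure D2:**
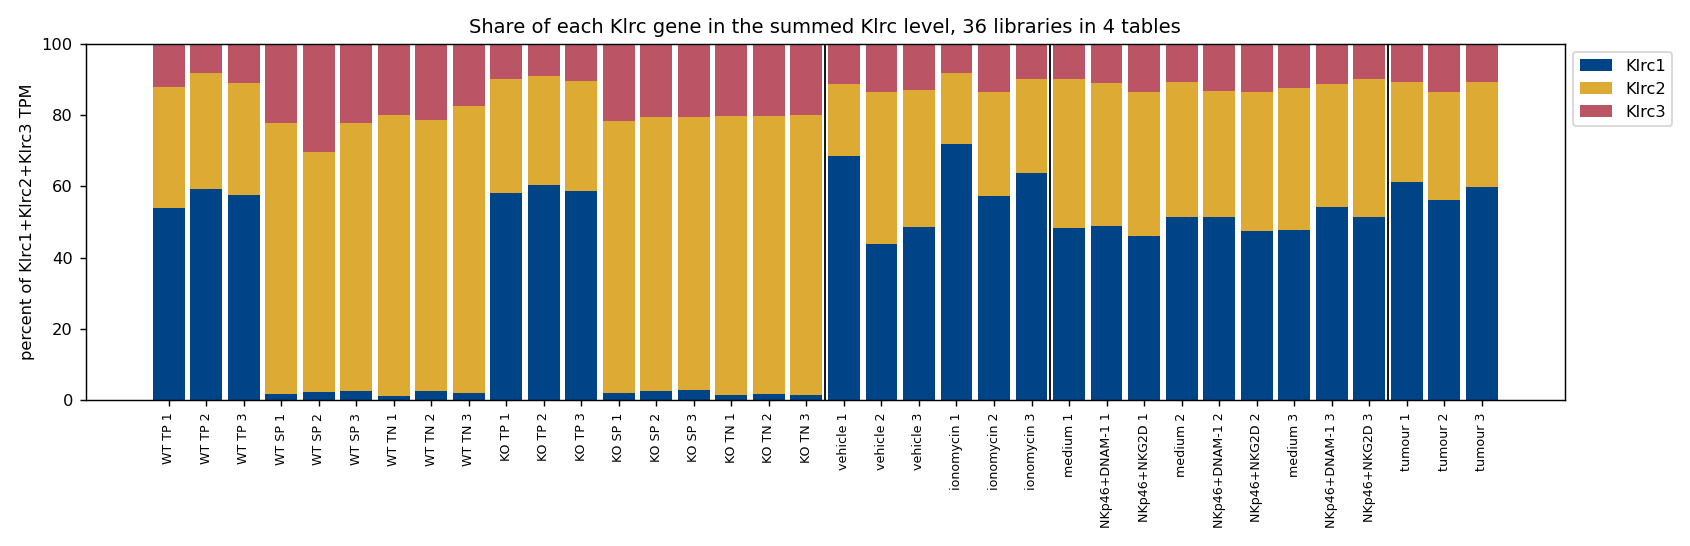
Percent of the summed Klrc1, Klrc2 and Klrc3 TPM that each gene supplied in each of the 36 libraries (KO, B2m-/-; vertical lines part the 4 tables). Klrc1 supplies 54.0% to 60.4% in TP cells and at most 2.87% in SP and TN cells.

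Klrd1, the shared partner chain, showed no called difference between the subsets. In WT cells it was at 1342, 1299 and 1256 TPM in TP, 1530.2, 1287 and 1389 TPM in SP, and 1216, 1119 and 1311 TPM in TN cells. In B2m-/- cells it was at 1410.2, 1327 and 1331 TPM in TP, 1459, 1374 and 1648 TPM in SP, and 1561, 1283 and 1498 TPM in TN cells. Neighbouring groups overlapped along the whole order of means, from B2m-/- SP, B2m-/- TN, WT SP, B2m-/- TP and WT TP to WT TN cells. For TN against TP cells the limma difference was -0.10 in WT mice (95% interval -0.28 to 0.09) and 0.09 in B2m-/- mice (-0.09 to 0.27).

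Klrk1 had its lowest mean in TP cells and its highest in TN cells of each genotype, by small margins that did not pass the test. In WT cells it was at 1675, 1498 and 1615 TPM in TP, 1799, 1739.9 and 1814 TPM in SP, and 1985, 1766 and 2213 TPM in TN cells. In B2m-/- cells it was at 1751, 1721 and 1692 TPM in TP, 1831, 1839 and 2083 TPM in SP, and 2025, 1855 and 2096 TPM in TN cells. TP libraries were the lowest of their genotype without overlap, while SP and TN libraries overlapped. The difference of TN from TP cells in WT mice was 0.31 (SE 0.077, 95% interval 0.15 to 0.47), with a limma adjusted p of 0.0591. It passed the threshold with the replicate block (0.0260), with quantile normalization (0.0424) and without WT TN replicate 2 (0.0136). The other 3 differences from TP cells were 0.15 to 0.21, with adjusted p of 0.530 to 1.00.

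Loss of B2m removes the class I ligands that the TP receptors bind, and the comparison of B2m-/- with WT mice within a subset asks what differs without them. None of the 5 genes was called in TP cells (1.59% of 12018 genes called), SP cells (1.35%) or TN cells (0.716%). At an unadjusted p under 0.05 the counts were 0, 0 and 1, against 1421, 1403 and 1263 of all 12018 genes. That gene was Klrd1 in TN cells, at 1447 ± 146 TPM in B2m-/- and 1215 ± 95.9 TPM in WT mice (SD, n = 3), a difference of 0.25 (95% interval 0.07 to 0.43, limma adjusted p = 0.285), and the groups overlapped. For Klrc2 the intervals were -0.21 to 0.16 in TP, -0.11 to 0.26 in SP and -0.14 to 0.23 in TN cells. For Klrc1 in TP cells, the only subset that bears NKG2A, the difference was 0.11 (-0.37 to 0.59), although the 3 B2m-/- libraries lay above the 3 WT libraries. For Klrk1 the intervals ran from -0.05 to 0.27 in TP, -0.06 to 0.26 in SP and -0.16 to 0.17 in TN cells. A test of whether the subset difference itself depended on genotype called none of the 5 for TN against TP (0.025% of all genes called) or for SP against TP cells (0.0166%), and none of the 5 reached an unadjusted p of 0.05. For Klrc2 that difference of differences was 0.06 (-0.20 to 0.33) for TN and 0.10 (-0.17 to 0.36) for SP cells.

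**Figure D3:**
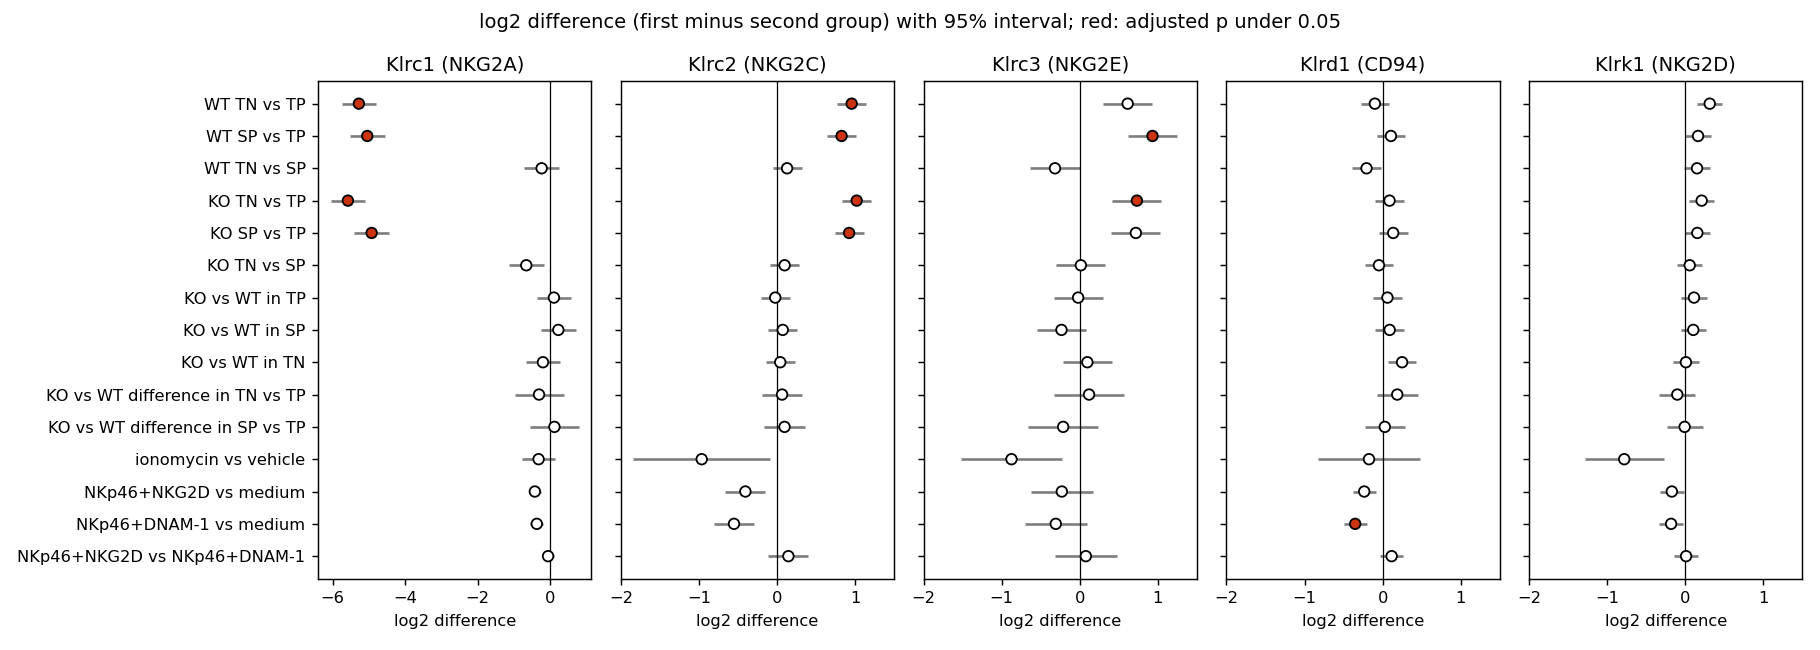
Log2 difference (first minus second group, on the log2(TPM + 1) scale) with its 95% interval from limma for each of the 5 genes in the 15 comparisons (KO, B2m-/-). Filled points passed an adjusted p of 0.05. Klrc1 has its own axis range. Klrc2 is near 1 in the 4 comparisons with TP cells, and the intervals of the genotype comparisons include 0 except for Klrd1 in TN cells.

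Ionomycin raises calcium in the cell without receptor engagement and was compared with vehicle after 22 h. Genes above 0 per library ran from 13904 to 14578 with vehicle and from 15157 to 15483 with ionomycin, without overlap. The part of this in the differences below was not tested. The means of all 5 genes were lower with ionomycin, but none was called by limma, where 2.91% of 14372 tested genes were called and 3 of the 5 reached an unadjusted p under 0.05 (15.1% of all genes). Klrk1 was at 1344, 1945 and 1241 TPM with vehicle and 949.4, 893 and 750.5 TPM with ionomycin, and Klrc3 at 84.8, 144 and 131 TPM against 54.1, 78.5 and 59.9 TPM. For these 2 genes the groups did not overlap, as for 20.1% of all genes. The difference was -0.78 for Klrk1 (95% interval -1.29 to -0.28, adjusted p = 0.120) and -0.88 for Klrc3 (-1.52 to -0.23, adjusted p = 0.170).

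For Klrc2 and Klrd1, vehicle replicate 1 stood apart from the other 2 vehicle libraries. Klrc2 was at 152, 457 and 392 TPM with vehicle and 135, 169 and 159 TPM with ionomycin, so that vehicle replicate 1 lay among the ionomycin libraries. Klrd1 was at 563, 1109.6 and 1202 TPM with vehicle and 859, 781 and 779 TPM with ionomycin, and vehicle replicate 1 was the lowest of the 6. Klrc1 was at 517, 470.0 and 494 TPM with vehicle, where replicate 1 was the highest, and at 485, 332 and 386 TPM with ionomycin. The Klrc2 difference was -0.96 (SE 0.387, adjusted p = 0.286), that of Klrd1 -0.17 (adjusted p = 0.841) and that of Klrc1 -0.32 (adjusted p = 0.531). Without vehicle replicate 1, Klrc2 stood at -1.46 (adjusted p = 0.00839) and Klrc3 at -1.11 (adjusted p = 0.0480), and both were called. Neutrophil markers were high in replicate 3 of both groups, and the summed NK markers were lowest in vehicle replicate 3 (3093 TPM, against 5868 and 6380.3 TPM in the other 2 vehicle libraries). ILC1 markers summed to 72.3 to 103.4 TPM with vehicle (4 or 5 of 5 above 1 TPM) and 40.8 to 70.2 TPM with ionomycin (3 or 4 of 5). Members of this list went both ways: the means of Cxcr6, Il7r and Itga1 were lower with ionomycin, whereas Tmem176b was at 4.02 TPM with vehicle and 11.1 TPM with ionomycin, without overlap, and Cd200r1 at 0.36 and 3.48 TPM. The part of these cells in the differences was not tested. Without the libraries numbered 3, an alternative chosen after seeing the data, none of the 5 was called.

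**Figure D4:**
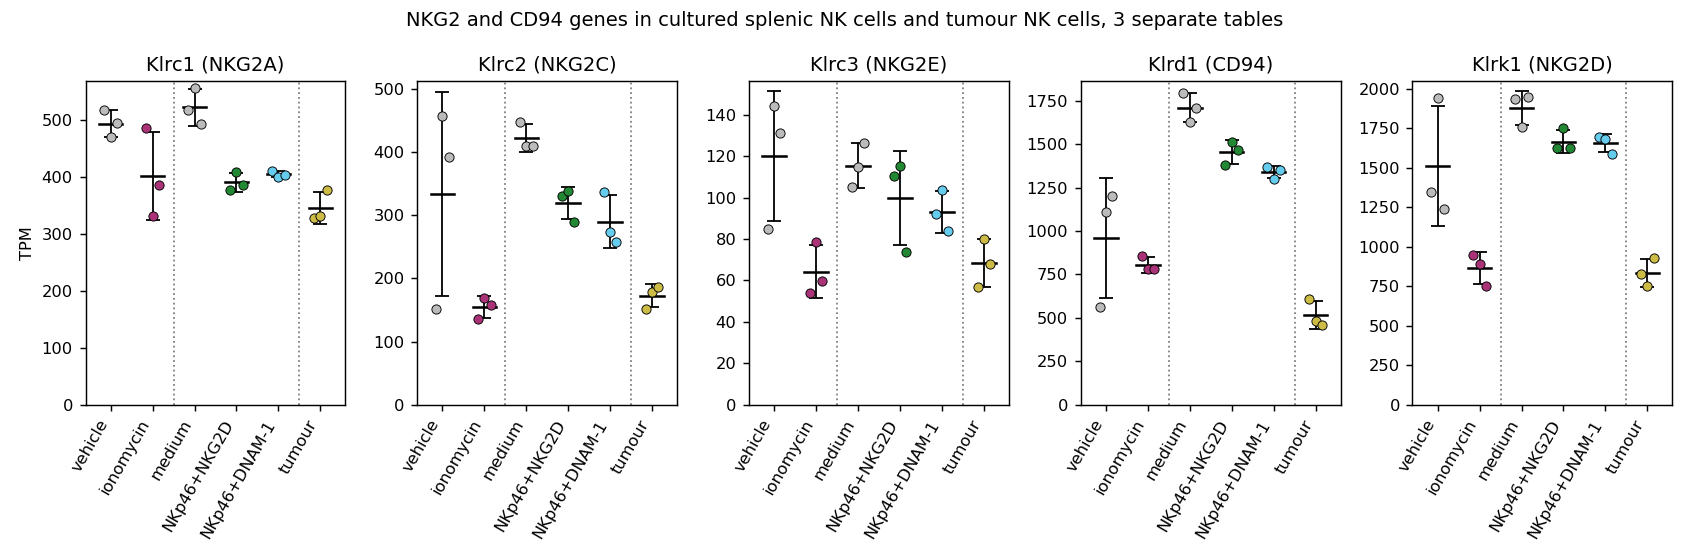
TPM of the 5 genes in the ionomycin, antibody and tumour tables, parted by dotted lines because levels are not compared across tables. Points are libraries, bars the mean and SD of 3. Vehicle replicate 1 is apart from the other 2 vehicle libraries for Klrc2 and Klrd1, and all 5 genes have their highest mean of the antibody table in medium.

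Antibodies to pairs of activating receptors, one of them NKG2D itself, were compared with medium after 48 h. Both antibody groups had lower means of all 5 genes than medium, by amounts that mostly missed the threshold. Genes above 0 per library also differed from medium, which had 13555 to 14674. There were 16107 to 17680 with NKp46 and NKG2D antibodies and 17132 to 18096 with NKp46 and DNAM-1 antibodies. The part of this in the lower TPM was not tested. None of the 5 was called with NKp46 and NKG2D antibodies, where 0.431% of 13689 tested genes were, although 4 of the 5 had an unadjusted p below 0.05. The NKp46 and DNAM-1 pair gave 1 call, where 0.782% of all genes were called, and 4 of the 5 had an unadjusted p below 0.05. Of all tested genes, 15.1% and 18% had such a p. The groups did not overlap for 4 of the 5 genes in the first comparison, as for 17.3% of all genes, and for all 5 in the second, as for 21.1% of all genes. Both comparisons use the same 3 medium libraries, so they are not independent. Summed ILC1 markers were higher in medium, at 53.5 to 60.9 TPM (4 or 5 of 5 above 1 TPM) against 18.6 to 48.2 TPM with antibodies (5 of 5), although Cxcr6 had a lower mean in medium (10.2 TPM, against 16.0 and 14.3 TPM). The same held for summed B and plasma cell markers, at 184 to 223 TPM against 123 to 180 TPM, with Igha at 0 in all 3 groups. Their part in these differences was not tested.

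Klrd1 was the gene called. It was at 1796, 1630.5 and 1708 TPM in medium, 1380.0, 1514 and 1467 TPM with NKp46 and NKG2D antibodies, and 1371, 1299.6 and 1352 TPM with NKp46 and DNAM-1 antibodies. The 3 groups did not overlap. Klrd1 fell by 0.35 with NKp46 and DNAM-1 antibodies (SE 0.067, limma adjusted p = 0.0481), a call lost under 10 of 14 alternatives, and differed by -0.24 with NKp46 and NKG2D antibodies (adjusted p = 0.166).

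Klrc1 and Klrc2 lay near the threshold in this table. Klrc1 was at 517, 556.5 and 493 TPM in medium, 377, 408 and 386 TPM with NKp46 and NKG2D antibodies, and 409.8, 400.4 and 404 TPM with NKp46 and DNAM-1 antibodies. Both antibody groups were below medium and overlapped each other. The difference from medium was -0.42 with the former (SE 0.078, adjusted p = 0.0639, or 0.0307 with the replicate block) and -0.36 with the latter (adjusted p = 0.0696, or 0.0312 with the block). Klrc2 was at 448, 410.0 and 410.5 TPM in medium, 329.8, 338 and 290.2 TPM with NKp46 and NKG2D antibodies, and 338, 274 and 258 TPM with NKp46 and DNAM-1 antibodies. It differed from medium by -0.41 (SE 0.115, adjusted p = 0.165) and by -0.55 (adjusted p = 0.0664, or 0.0182 with the block).

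Klrk1, whose product one of the antibodies bound, was at 1936, 1756 and 1947 TPM in medium, 1625, 1750.4 and 1623 TPM with NKp46 and NKG2D antibodies, and 1692, 1682 and 1590.0 TPM with NKp46 and DNAM-1 antibodies. Every medium library was above every antibody library. The differences from medium were -0.17 (95% interval -0.32 to -0.02, adjusted p = 0.273) and -0.18 (-0.33 to -0.03, adjusted p = 0.213). Klrc3 ranged from 105 to 126 TPM in medium and from 73.8 to 115 TPM over the 6 antibody libraries, with adjusted p of 0.566 and 0.396. Between the antibody pairs none of the 5 was called (0.0146% of genes called), and none reached an unadjusted p of 0.05. The interval of that difference was -0.14 to 0.16 for Klrk1. When the 9 libraries were grouped by their titles, none of the 5 was called in any of the 3 comparisons, and Klrd1 with NKp46 and DNAM-1 antibodies differed from medium by 0.00.

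The 3 tumour libraries have no comparison group in their table, and their levels are given as values. In replicates 1 to 3, summed erythroid markers stood at 0, 208 and 333 TPM. Summed macrophage and monocyte markers stood at 69.0, 41.35 and 39.9 TPM, while all 7 neutrophil markers were listed at 0. The part of such cells in the levels below was not tested. Klrk1 was at 830.5, 749.5 and 926 TPM and Klrd1 at 609, 479 and 458 TPM. Klrc1 was at 328, 331 and 377 TPM, above Klrc2 at 152, 179 and 186 TPM and Klrc3 at 56.7, 80.0 and 68.1 TPM. Klrk1 was the most abundant of the 5 genes in each of these libraries too, and Klrc1 supplied 56.1% to 61.1% of the Klrc sum. The order Klrc1, Klrc2, Klrc3 also held in TP cells and in the NK cells of the medium group, which were not sorted by these receptors, where Klrc1 supplied 47.9% to 51.5%. This order did not hold in the sorted splenic SP cells, whose gate the tumour columns name. There Klrc1 supplied at most 2.87% of the Klrc sum. Fewer cells bearing a receptor and less RNA per cell cannot be told apart in bulk samples such as these, which applies to all groups not sorted by receptor here.

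A list of 29 genes of the same pathway covered the presentation of the Qa-1 ligand, NKG2D ligands, adaptors, and inhibitory and activating signalling. Of these, 26 passed the filter on low values in the subset table. The Qa-1 gene H2-T23 was not called in any comparison. Of the NKG2D ligand genes, Ulbp1 was tested in all 3 tables and H60b in the subset and ionomycin tables, and neither was called, while Raet1e and H60c did not pass the filter in any of them. Both adaptor genes were abundant: in WT TP cells Tyrobp, which encodes DAP12, was at 2656, 2811 and 2706 TPM, and Hcst, which encodes DAP10, at 307, 404 and 342 TPM. Hcst was not called in any comparison. Tyrobp was lower in B2m-/- TP cells, at 2171, 2309.7 and 2139.8 TPM, without overlap with WT TP cells, a log2 difference of -0.30 (limma adjusted p = 0.0214). That call was lost under 9 of 12 alternatives, and the B2m-/- TP libraries are those with neutrophil and B cell markers, whose part in this difference was not tested.

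The clearest difference among the signalling genes was in Ptpn6, which encodes SHP-1, the phosphatase recruited by inhibitory receptors such as NKG2A. In WT cells it was at 164, 155 and 133 TPM in TP, 122, 192 and 120 TPM in SP, and 357, 298 and 266 TPM in TN cells. In B2m-/- cells it was at 356, 328 and 376 TPM in TP, 326, 328 and 289 TPM in SP, and 363, 309 and 271 TPM in TN cells. WT TP and WT SP libraries were low, and every library of the other 4 groups lay above them. Ptpn6 was higher in WT TN than in WT TP cells by 1.02 (SE 0.160, limma adjusted p = 0.00209) and than in WT SP cells by 1.11 (adjusted p = 0.00356, or 0.203 with only these 6 libraries). It was higher in B2m-/- than in WT cells by 1.23 in TP (adjusted p = 0.000239) and by 1.15 in SP cells (adjusted p = 0.000616). The comparisons of WT TP or WT SP cells with several groups share those libraries. B and plasma cell markers were also lowest in those groups, at 167 to 180.2 TPM in WT TP and 180.5 to 189 TPM in WT SP cells, against 280 to 336 TPM in WT TN, 403 to 683 TPM in B2m-/- TP, 196 to 225 TPM in B2m-/- SP and 215 to 236 TPM in B2m-/- TN cells. Of the 7 genes on that list, 1 to 6 were above 1 TPM per library. Among them, Igha was at 0 in WT SP and B2m-/- TN cells and Ms4a1 in B2m-/- TN cells. Their part in the Ptpn6 differences was not tested.

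Pik3r1, which encodes the regulatory subunit of the PI3-kinase that DAP10 recruits, was also higher without B2m. It was at 243, 239 and 209 TPM in WT TP and 407, 359 and 399 TPM in B2m-/- TP cells, without overlap (0.75, adjusted p = 0.000239). In SP cells the difference was 0.59 (adjusted p = 0.00300, or 0.0557 with only these 6 libraries). Pik3r1 was higher in WT TN than in WT TP cells by 0.43 (adjusted p = 0.0367), a call lost under 10 of 13 alternatives. H2-D1, a classical class I gene whose leader supplies a Qa-1 peptide, was lower in WT TN than in WT TP cells by a log2 difference of -0.19 (adjusted p = 0.0476), and this call was lost under all 13 alternatives. Of the 26 list genes tested, 2 were higher and 1 lower in WT TN against TP cells (11.5%, against 1.31% of all genes), and 1 was higher in WT TN against SP cells (3.85%, against 0.383%). None was called in WT SP against TP cells or between the subsets of B2m-/- mice, where 2 (WT SP against TP), 3 (TN against TP), 0 (SP against TP) and 1 (TN against SP) were at an unadjusted p under 0.05. These are 7.69%, 11.5%, 0% and 3.85% of the list, against 7.71%, 6.43%, 2.93% and 2.77% of all genes. Without B2m, 2 were higher and 2 lower in TP, 2 higher and 1 lower in SP, and 0 higher and 1 lower in TN cells (15.4%, 11.5% and 3.85%, against 1.59%, 1.35% and 0.716% of all genes), the lower gene of each being B2m, with Tyrobp in TP cells. The part of these shares that B2m supplies was fixed by the genotype, since it is the deleted gene. In TN cells no other list gene was called.

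**Figure D5:**
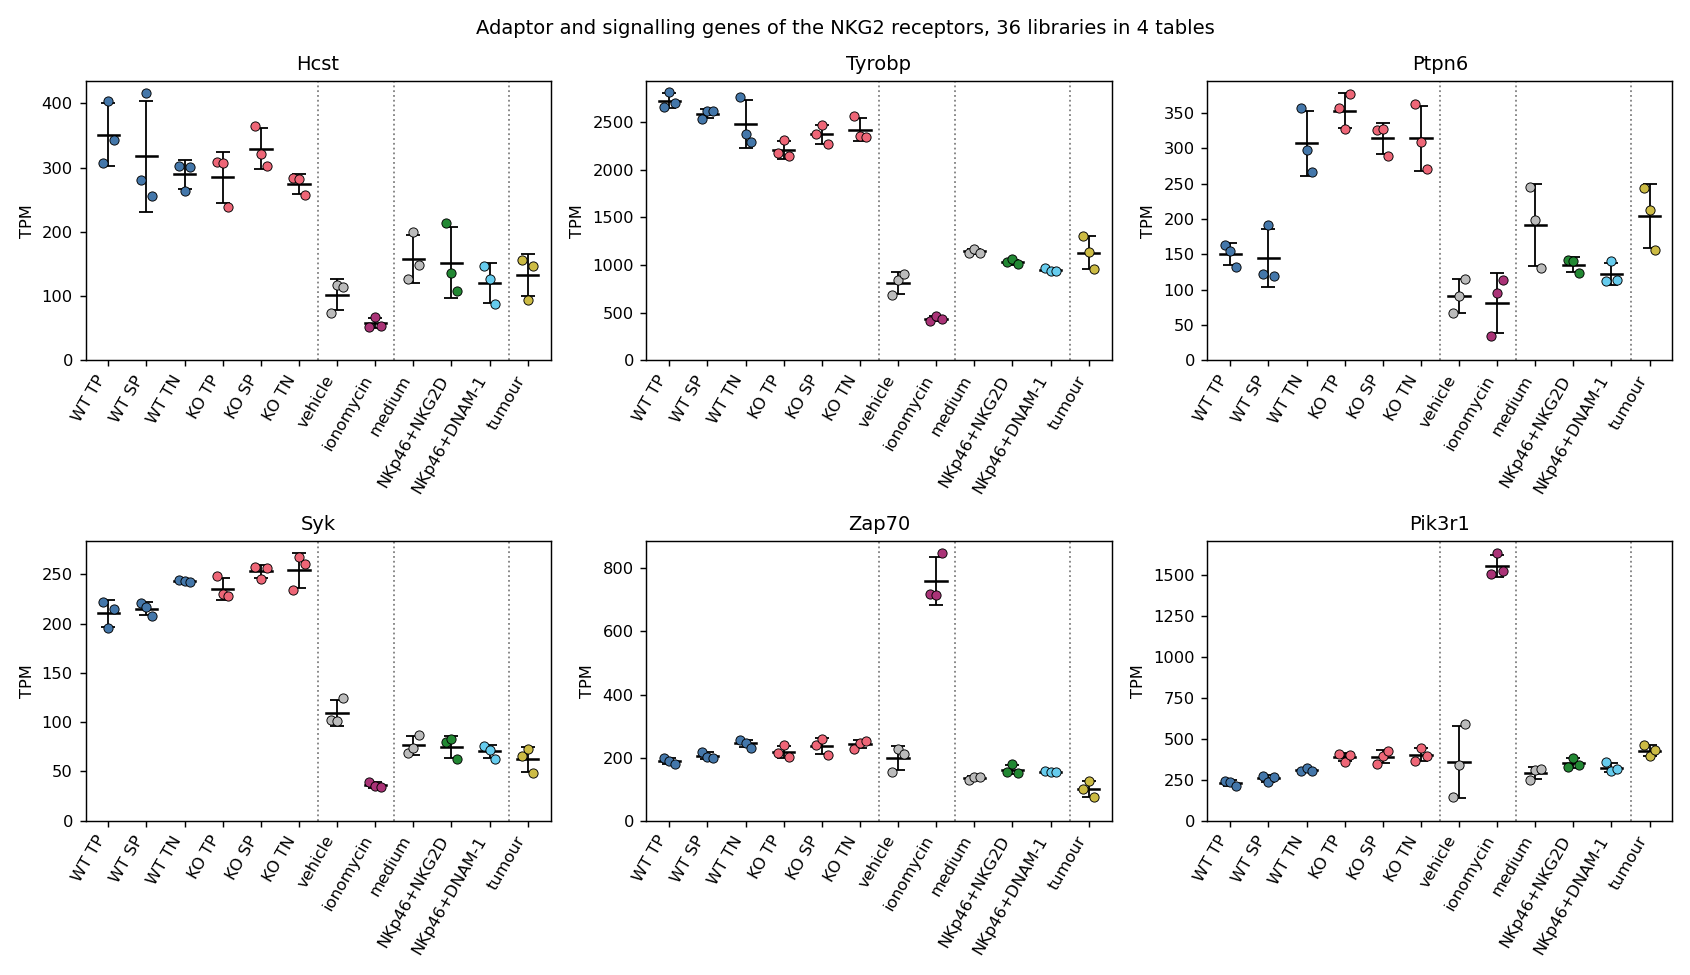
TPM of 2 adaptor genes (Hcst, Tyrobp), the phosphatase gene Ptpn6, the kinase genes Syk and Zap70, and Pik3r1 in the 36 libraries (KO, B2m-/-; dotted lines part the 4 tables, between which levels are not compared). Ptpn6 is lowest in WT TP and WT SP cells of the subset table, and Zap70 and Pik3r1 are high with ionomycin.

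Ionomycin changed 6 of the 26 list genes tested, with 2 higher and 4 lower (23.1%, against 2.91% of all genes). Zap70, a tyrosine kinase that binds phosphorylated adaptors, was at 154, 227 and 212 TPM with vehicle and 718, 714 and 847 TPM with ionomycin, and rose by 1.95 (limma adjusted p = 0.00367). Syk, the related kinase that DAP12 recruits, went the other way, from 102.3, 101.7 and 125 TPM to 39.6, 35.5 and 33.8 TPM, and fell by 1.57 (adjusted p = 0.0128). Neither pair of groups overlapped. Pik3r1 rose by 2.33 (adjusted p = 0.0263), from 146, 338 and 589.8 TPM to 1504.5, 1631 and 1526 TPM. Tyrobp fell by 0.88 (adjusted p = 0.0457), from 686, 846 and 902 TPM to 414, 470.3 and 433 TPM. Plcg2, a phospholipase of the same cascade, fell by 1.74 (adjusted p = 0.0215) and Vav1, an exchange factor, by 1.17 (adjusted p = 0.0272). Without the libraries numbered 3, which carry the neutrophil markers, none of the 6 was called, with adjusted p of 0.0504 for Zap70, 0.0524 for Pik3r1, 0.0677 for Plcg2, 0.110 for Syk, 0.148 for Vav1 and 0.225 for Tyrobp, and with the sizes 1.93, 2.81, -1.93, -1.42, -1.18 and -0.79. In the antibody table none of 25 list genes tested was called, with 6, 5 and 0 at an unadjusted p under 0.05 in the 3 comparisons (24%, 20% and 0%, against 15.1%, 18% and 1.22% of all genes).

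In RefSeq gene order the 5 genes stand as Klrd1, Klrk1, Klrc3, Klrc2 and Klrc1, with Cd69, Gabarapl1 and Klre1 before them and Klri1, Klri2 and Klra5 after them. Of these 6 neighbours, Klri2, which encodes another lectin-like receptor chain, was called between subsets. It was higher than in TP cells by 0.86 in WT TN (adjusted p = 7.98e-07), 0.65 in WT SP (adjusted p = 6.46e-05), 0.86 in B2m-/- TN (adjusted p = 1.18e-06) and 0.73 in B2m-/- SP cells (adjusted p = 1.77e-05). In the antibody table Klri2 was lower with NKp46 and DNAM-1 antibodies by a log2 difference of -0.64 (adjusted p = 0.0378), a call lost under 9 of 14 alternatives. Cd69, an activation marker, differed from medium by -1.53 with NKp46 and NKG2D (adjusted p = 0.0171, lost under 6 of 14 alternatives) and by -1.31 with NKp46 and DNAM-1 antibodies (adjusted p = 0.0337, lost or of the other sign under 8 of 14).

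Genes whose log2 level followed each member most closely over the 18 subset libraries were ranked by Pearson's r, as a description, since the libraries share sort gates and genotypes. For Klrc1 the first was Klra3 (r = 0.99), the gene of Ly49C, which the same TP gate selects. For Klrc2 they were Klri2 (r = 0.96), Klra4 (r = 0.95) and Klra13-ps (r = 0.94). For Klrc3 the first was Chl1 (r = 0.84), at most 4.47 TPM, followed by Klra8 (r = 0.83) and Klra4 (r = 0.80). For Klrd1 it was its neighbour Klre1 (r = 0.78) and for Klrk1 Tpt1 (r = 0.89). Over the 9 antibody libraries the closest genes were others: Pde4dip for Klrc1 (r = 0.99), Pck2 for Klrc2 (r = 0.98), Mob3a for Klrc3 (r = 0.94), Ppp1r15b for Klrd1 (r = 0.99) and Susd6 for Klrk1 (r = 0.97).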

How the data were processed

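The authors deposited 4 tables of TPM, 1 for each experiment, made with STAR and RSEM on GRCm39 per the submitters' processing notes, which give no versions. Sequencing depth is unknown, so precision rests on 3 replicates. A gene was tested where its table mean reached 1 TPM, which left 12018, 14372 and 13689 genes in the subset, ionomycin and antibody tables. Limma 3.58.1 (R 4.3.3) fitted group means of log2(TPM + 1), a scale that understates changes of low genes, with a variance trend, in 1 fit per table. All tests were two-sided, with Benjamini-Hochberg adjustment over all genes in each of 15 comparisons; calls are adjusted p-values below 0.05. An exact permutation test of 3 against 3 cannot give a p under 0.1. All 5 members were named, and genes of the list of 29 where called. The members and lists were chosen with earlier results of these data known. Alternatives were pseudocount 0.1, no filter, quantile or median-of-ratios scaling, no variance trend, fewer groups, each library left out, a replicate block, and titles for groups. Column names such as WT1 read as 1 mouse per number, but same-numbered libraries deviated together only weakly (mean r 0.010 in the subset, 0.062 in the ionomycin and 0.064 in the antibody table), so the block is given only where it changed a call. Each table carries 1 batch date. The fit was tested on simulated data.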

Additional observations from a re-analysis of the deposited data

How the results depend on the processing

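The number of called NKG2 and CD94 genes stayed within 1.5 times of its value under every alternative in 12 of 15 comparisons. Of 1025 values of the 5 genes under alternatives, 20 lost a call and 16 gained one. Another 8, without a call in either fit, changed sign and moved by at least their standard error. The remaining 981 also kept their side of the threshold, and any change of sign among them was a smaller move without a call. For ionomycin the count of 0 became 2 without vehicle replicate 1, and leaving out 1 library at a time gave 0 to 2. With NKp46 and NKG2D antibodies the count of 0 became 1 with quantile normalization and 1 with the replicate block, and leave-one-out fits gave 0 to 1 (1 without medium replicate 3). With NKp46 and DNAM-1 antibodies the count of 1 became 0 without the filter on low values, with median-of-ratios scaling, without the variance trend, with only the 2 compared groups and with groups by title. It became 3 with quantile normalization and 3 with the replicate block, and leave-one-out fits gave 0 to 3 (3 without medium replicate 3). The cause of these changes was not tested. The block also moved the count from 2 to 3 in WT TN against TP cells (Klrk1 gained) and from 3 to 2 in B2m-/- TN against TP cells (Klrc3 lost), and left it as it was in the other comparisons with a block. The comparisons of genotypes have no block, since their mice differ. Cd69 turned from -1.31 to 0.11 with NKp46 and DNAM-1 antibodies when groups followed the titles.

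Among the 26 list genes, the 3 called in WT TN against TP cells became 1 with no variance trend, with only the 2 compared groups, and 1 to 2 with 1 library left out. The 1 called in WT TN against SP cells became 0 with only the 2 compared groups. The 6 called with ionomycin became 1 without the variance trend, 0 to 8 with 1 library left out (8 without vehicle replicate 1, 0 without ionomycin replicate 3), and 0 without the libraries numbered 3. In the antibody table the count of 0 became 1 (NKG2D pair) and 2 (DNAM-1 pair) with the replicate block, and as many without medium replicate 3. Depth is unknown, so what it limits for the low genes cannot be given.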
